A study of Glycine max with 12 samples.

Results

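The genes described here are 8 chalcone synthases and 2 isoflavone synthases of soybean, followed through pods of plants kept under control conditions, water deficit, heat, and both stresses at once. They were taken by gene ID, as 10 of the 57147 rows that each deposited table holds, and all 10 passed the filter on low counts that left 38737 genes for testing. 4 of them carry a common name in the list of members: CHS7 (GLYMA_01G228700), CHS8 (GLYMA_11G011500), IFS1 (GLYMA_07G202300) and IFS2 (GLYMA_13G173500). The other 6 chalcone synthases are given by ID, because the files pair no ID with a name and 0 IDs matched the RefSeq gene table. That table, of assembly Glycine_max_v4.0, names 17 chalcone synthase genes and 2 isoflavone synthase genes, so the 8 chalcone synthases are a part of the family, and the rest of it was not analysed here.

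The plants were of cultivar Magellan, inoculated with Bradyrhizobium japonicum, and grew for 16 to 18 days after transplanting, under a 12-h day, before they were divided among 4 chambers at the opening of the first flower. The control chamber was set to 28 °C (day) and 24 °C (night) with full watering (100% of the water that plants could transpire). In the water-deficit chamber the temperature was the same and watering was cut to 30%. Heat-stressed plants were fully watered at a day temperature of 38 °C and a night temperature of 28 °C, and combined stress joined those temperatures with 30% watering. Each group had 3 libraries, each from 10 to 15 pods pooled over 8 to 10 plants, and each condition had a chamber to itself, so condition and chamber cannot be told apart.

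Chalcone synthase joins a coumaroyl thioester from the phenylpropanoid pathway to malonyl units and makes the chalcone from which all flavonoids derive. Isoflavone synthase, a cytochrome P450 enzyme (CYP93C) found mainly in legumes, diverts a flavanone into the isoflavone branch that gives genistein and daidzein, the latter the precursor of soybean's glyceollin phytoalexins. Between them they set the entry to flavonoid synthesis and one of its exits. In soybean, CHS7 and CHS8 are known for their link to seed isoflavone content, and an inverted repeat of chalcone synthase genes silences the family in yellow seed coats.

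Total counts per library ran from 17310023 to 26591115, at which 3 counts correspond to 0.113 to 0.173 CPM (counts scaled to a common library size), a floor that covers counting error only. Comparisons between genes use FPKM (fragments scaled by gene length and library size), which is scaled by length, and tests between conditions use the counts, given as CPM. The 2 tables did not always agree, and the ratio of FPKM to CPM varied between libraries by 1.20-fold for CHS7, 1.31-fold for CHS8 and 6.99-fold for IFS1, against a median of 1.52-fold over 31286 genes. Among counts between 6 and 65, even numbers were the majority in all 12 libraries. They made up 87.5% in water deficit replicate 2, the highest share, and 59.1 to 78.8% in the remaining libraries. The next highest were heat replicate 3 at 78.8% and combined replicate 3 at 75.5%. The tissue label was compared with IDs that general knowledge, not the files, assigns to seed storage globulins (5 IDs) and nodule leghemoglobins (4 IDs). Counts were summed over those IDs of each list that the deposited data contain. The sums were 0 in the control, water-deficit and heat libraries, and at most 36 for the first list and 12 for the second in a combined-stress library. How many of the 9 IDs the data contain was not recorded, so mature seed and nodule transcripts were at or near 0 only as far as those IDs show. As pods are a mixture of cell types, fewer cells of a type and less RNA per cell cannot be told apart.

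Among the 8 chalcone synthases followed here, a few genes carried nearly all of the transcript. CHS7 had a mean of 15.0 FPKM over the 12 libraries, CHS8 had 8.37, GLYMA_08G109400 had 3.85 and GLYMA_05G153200 had 1.96. This order of 4 held in each of the 12 libraries. Below them on the FPKM scale lay IFS1 at 1.56 and IFS2 at 1.42, which stood in that order in only 6 of 12 libraries and so cannot be ranked against each other. The remaining chalcone synthases had means of 0.898 (GLYMA_02G130400), 0.701 (GLYMA_08G109300), 0.306 (GLYMA_08G109500) and 0.297 (GLYMA_09G075200), and the last pair kept this order in 7 of 12 libraries. Together CHS7 and CHS8 made up 75.6 to 79.5% of the summed chalcone synthase FPKM in control pods and 64.9 to 69.9% in heat-stressed pods. These shares did not overlap.

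In heat, CHS7 and CHS8 fell to 0.501 and 0.380 of their control level in CPM. In combined stress CHS8 and GLYMA_08G109400 fell, to 0.390 and 0.394, and IFS1 rose 7.24-fold in the mean. None of the 10 genes was called in water deficit alone. Calls rest on edgeR's quasi-likelihood test at an adjusted p under 0.05 (Benjamini-Hochberg, over all 38737 genes). Heat thus gave 2 lower calls among the 10 (0.764% of all genes tested were called lower), and combined stress gave 2 lower calls (8.56% of all genes) and 1 higher call (5.39% of all genes). These calls were not equally firm. In 23 alternative analyses the IFS1 call was lost in 13, that of GLYMA_08G109400 in 6 and that of CHS7 in heat in 7. Both CHS8 calls held in all 23. The 3 stress groups share the control libraries, so their changes against control are not independent of each other.

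**Figure D1:**
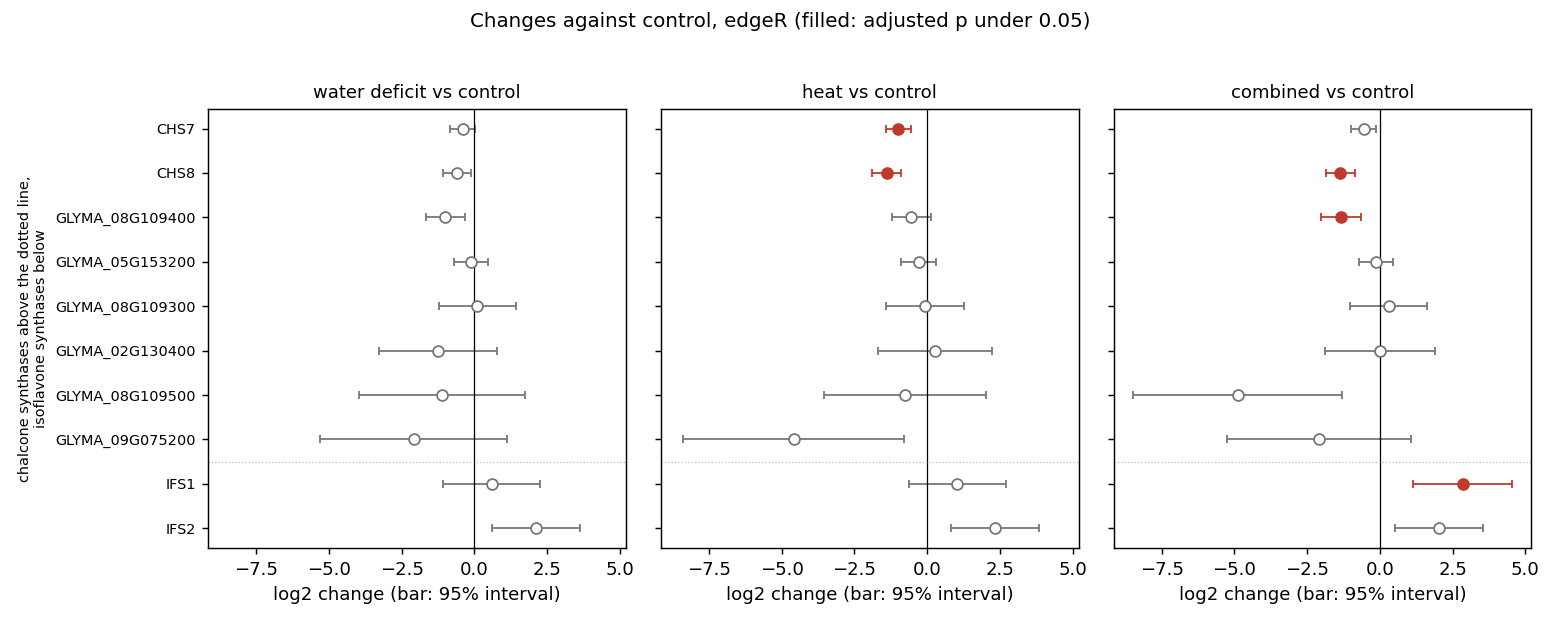
Log2 change against control (horizontal axis) of the 10 genes in water deficit, heat and combined stress from edgeR, with approximate 95% intervals; filled points have an adjusted p under 0.05. The filled points are CHS7 and CHS8 in heat, at -1.0 and -1.40, and CHS8, GLYMA_08G109400 and IFS1 in combined stress, at -1.35, -1.34 and 2.85.

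CHS8 changed most evenly. Its level was 11.5, 14.6 and 15.4 FPKM in the control libraries, 6.71, 10.1 and 9.97 in water deficit, 4.10, 5.11 and 6.26 in heat, and 5.12, 4.88 and 6.60 in combined stress. All 9 stress libraries lay below the lowest control library, and the heat and combined-stress libraries also lay below every water-deficit library. In heat CHS8 fell from 23.6 ± 4.84 to 8.97 ± 2.96 CPM (SD, n = 3 each), a log2 change of -1.40 (SE 0.25, edgeR adjusted p = 0.00461). In combined stress it fell to 9.21 ± 0.891 CPM (log2 change -1.35, SE 0.249, edgeR adjusted p = 0.00106). The water-deficit mean, 15.5 ± 2.69 CPM, was 0.655 of control and did not pass the test (log2 change -0.61, SE 0.245, edgeR adjusted p = 1). Both called falls of CHS8 held in each of 23 alternative analyses, 12 of which leave out 1 library.

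CHS7, the most abundant member, fell in heat. Its control libraries stood at 14.6, 23.1 and 24.4 FPKM, and its heat libraries at 10.7, 8.95 and 12.7. In water deficit the values were 15.2, 12.2 and 17.2 FPKM, and in combined stress 13.7, 13.6 and 13.7. The heat libraries lay below all control libraries. The combined-stress libraries differed little from each other, and on this scale lay below all control and above all heat libraries. On CPM they overlapped control, since combined replicate 1 at 19.9 was just above control replicate 1 at 19.8. In CPM the mean went from 27.8 ± 7.32 in control to 13.9 ± 2.61 in heat (SD, n = 3 each; log2 change -1.0, SE 0.221, edgeR adjusted p = 0.0217). Combined stress, at 18.9 ± 1.01 CPM, gave a log2 change of -0.55 (SE 0.218) that did not pass (edgeR adjusted p = 0.101). The heat call was lost without control replicate 2, control replicate 3 or heat replicate 2 (edgeR adjusted p = 0.114, 0.134 and 0.0762), and combined stress was called without control replicate 1 (edgeR adjusted p = 0.042). On FPKM the heat change was -0.86 (limma on log2(FPKM + 1), adjusted p = 0.0597).

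Beside CHS7, CHS8 was scarcer in both groups kept at high temperature. The ratio of CHS8 to CHS7 in FPKM was 0.632 to 0.789 in the control libraries and 0.384 to 0.571 in heat. It was 0.359 to 0.481 in combined stress, and 0.441 to 0.827 in water deficit. Neither high-temperature group overlapped control, and on counts the same ratio went from between 0.794 and 0.914 in control to between 0.433 and 0.542 in combined stress. The ratio was examined after the levels had been seen and has no test here.

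GLYMA_08G109400, GLYMA_08G109300 and GLYMA_08G109500 have consecutive numbers, and the RefSeq table places 9 of its 17 chalcone synthase symbols on chromosome 8. How the authors' counting treated reads shared by near-identical copies is not given in the sources used here, so the split among these copies is uncertain. GLYMA_08G109400 had 4.22, 5.25 and 5.89 FPKM in control, 2.83, 4.41 and 3.94 in water deficit, 3.17, 2.40 and 4.82 in heat, and 3.42, 3.17 and 2.71 in combined stress. Only the combined-stress group lay wholly below control on this scale. In CPM it fell from 14.3 ± 2.32 to 5.62 ± 0.841 in combined stress (SD, n = 3 each; log2 change -1.34, SE 0.347, edgeR adjusted p = 0.0129). The heat mean of 9.74 ± 4.45 CPM and the water-deficit mean of 7.15 ± 3.64 CPM were not called (edgeR adjusted p = 0.526 and 0.857). The call in combined stress was lost without control replicate 2 (edgeR adjusted p = 0.0667), combined replicate 2 (0.0634) or combined replicate 3 (0.0651). It was also lost on FPKM, where the change shrank to -0.57 (limma on log2(FPKM + 1), adjusted p = 0.0845).

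GLYMA_08G109500 was rare in every group. It had 27, 11 and 8 counts in the control libraries, 4, 0 and 12 in water deficit, 8, 2 and 12 in heat, and 0, 1 and 0 in combined stress. All combined-stress libraries were at or under 3 counts, the lowest abundance taken as measurable, while every control library was above it. The difference from control was not called (edgeR adjusted p = 0.0853), though it was without water deficit replicate 2 (0.0418) and in 4 of 20 alternatives in all. GLYMA_08G109300 had no such pattern, and its levels ran from 0.602 to 0.850 FPKM in control and from 0.538 to 0.823 in combined stress, and its groups overlapped in all comparisons with control.

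GLYMA_05G153200 differed least in mean FPKM between conditions among the better expressed members. In CPM its combined-stress libraries were spread more widely, at 3.97, 7.74 and 8.08. Its mean level was 1.92 ± 0.155 FPKM in control, 1.96 ± 0.458 in water deficit, 1.90 ± 0.324 in heat and 2.05 ± 0.365 in combined stress (SD, n = 3 each). The log2 change in combined stress was -0.13, with an approximate 95% interval from -0.73 to 0.46 (edgeR adjusted p = 0.833), so a change in either direction of that size could not be seen. Its counts and FPKM did not move together across libraries (Pearson r of -0.02 on log values, 12 libraries).

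GLYMA_09G075200 had 16, 15 and 32 counts in control, 6, 0 and 6 in water deficit, 2, 0 and 0 in heat, and 0, 0 and 16 in combined stress. On counts, heat and water deficit lay wholly below control, and combined replicate 3 reached the control range. On FPKM combined stress also lay wholly below control, though narrowly (0.507 in combined replicate 3 against 0.518 in control replicate 2). No comparison with control was called (edgeR adjusted p from 0.292 to 1). The control libraries carried this gene through the filter on low counts, so lower values elsewhere were partly set by that filter. GLYMA_02G130400 had 8, 30 and 52 counts in control, 27, 0 and 6 in water deficit, 32, 26 and 38 in heat, and 20, 18 and 59 in combined stress. Its libraries were widely spread in each group but heat. Every stress group overlapped control, and none was called against it. The heat libraries lay above all water-deficit libraries in CPM and FPKM, a difference that was not tested. In water deficit replicate 2 this gene, GLYMA_08G109500 and GLYMA_09G075200 all had 0 counts, but the FPKM table lists 0.771, 0.0666 and 0 for them.

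Both isoflavone synthases had higher means in each stress than in control. For IFS1 in water deficit the difference was slight in FPKM, 0.674 ± 0.225 against 0.634 ± 0.271 in control (SD, n = 3 each), and was not called. IFS1 had 0.345, 0.676 and 0.881 FPKM in control, 0.420, 0.753 and 0.848 in water deficit, 0.264, 0.969 and 1.50 in heat, and 2.64, 8.07 and 1.34 in combined stress. The combined-stress libraries lay above all control and water-deficit libraries on this scale, with replicate 2 far above the others. In CPM, IFS1 rose from 1.12 ± 0.564 to 8.11 ± 8.45 (SD, n = 3 each; log2 change 2.85, SE 0.871, edgeR adjusted p = 0.0422), and there the groups did overlap, since combined replicate 3 at 1.75 was just under the highest control library at 1.76. Without combined replicate 2 the change was 1.59 (edgeR adjusted p = 0.289). The call was also lost without any one of control replicates 1, 2 and 3, water deficit replicate 3, heat replicates 2 and 3 or combined replicate 1 (edgeR adjusted p from 0.0532 to 0.167), and in 13 of 23 alternatives in all.

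IFS2 had its lowest mean in control and its highest in heat. It had 0.370, 0.459 and 0.471 FPKM in control, 1.68, 2.71 and 0.279 in water deficit, 1.87, 1.18 and 4.15 in heat, and 1.39, 1.66 and 0.864 in combined stress. Every heat and combined-stress library lay above every control library, and in water deficit replicate 3 lay below them. In CPM, control averaged 0.739 ± 0.263, water deficit 3.21 ± 2.63, heat 3.74 ± 3.10 and combined stress 3.07 ± 1.69 (SD, n = 3 each). None of these differences was called: the log2 changes were 2.11 in water deficit (edgeR adjusted p = 0.952), 2.32 in heat (edgeR adjusted p = 0.16) and 2.03 in combined stress (edgeR adjusted p = 0.0904). The last was called without water deficit replicate 3 (edgeR adjusted p = 0.0388), by DESeq2 (adjusted p = 0.0408) and with only the 2 compared groups in the edgeR fit (adjusted p = 0.0145). In the other 20 alternatives it was not called, limma on log2(FPKM + 1) among them (log2 change 0.67, adjusted p = 0.254). IFS1 made up 60.8 to 83.0% of the summed isoflavone synthase FPKM in combined stress, 12.4 to 45.0% in heat and 48.3 to 65.2% in control. In water deficit the IFS1 share ran from 20.0 to 75.3% on FPKM and from 6.76 to 81.1% on counts, overlapping each other group. On counts its share was 50.0 to 78.0% in combined stress and 31.3 to 58.1% in heat, so these groups overlapped on that scale, and combined stress overlapped control on both.

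**Figure D2:**
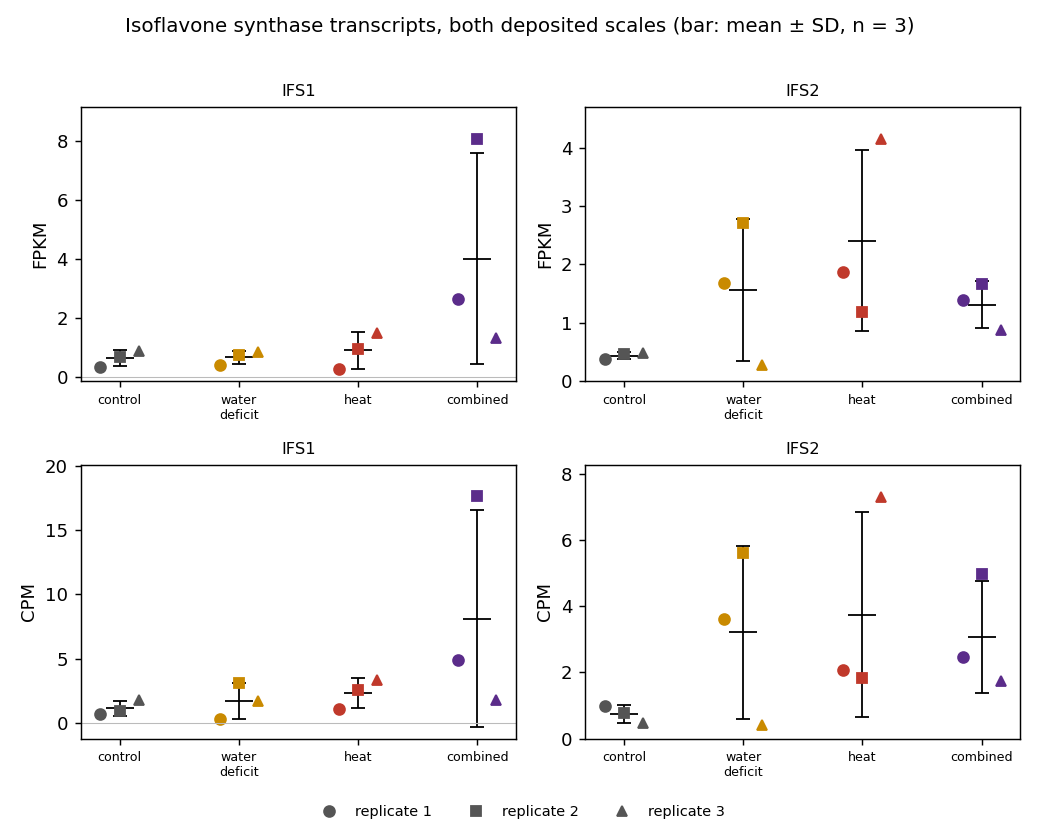
Level of IFS1 and IFS2 in each library, in FPKM (upper panels) and CPM (lower panels), by condition. Points are libraries, with the replicate number as the marker shape, and bars are means with SD (n = 3). IFS1 reaches 8.07 FPKM in combined replicate 2 against at most 0.881 in control, and IFS2 exceeds its highest control library in every heat and combined-stress library.

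Counted by the libraries alone, 3 of the 10 genes had all water-deficit libraries below all control libraries in CPM: CHS8, GLYMA_08G109400 and GLYMA_09G075200 (6.51% of all genes tested). In heat 3 were wholly lower (CHS7, CHS8 and GLYMA_09G075200, against 10.2% of all genes) and 1 wholly higher (IFS2, against 9.73%). In combined stress 3 were wholly lower (CHS8, GLYMA_08G109400 and GLYMA_08G109500, against 20.9%) and 1 wholly higher (IFS2, against 19.8%). GLYMA_09G075200 passed the filter on low counts only with its control libraries, the group where it was highest. Its place among the wholly lower genes was thus partly set by the filter and is no support. The median log2 change of the 8 chalcone synthases, this gene included, was -0.80 in water deficit, -0.66 in heat and -0.95 in combined stress. Over all genes tested the medians were between 0.00 and 0.01 in size.

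Water deficit alone was compared with control to ask which of these transcripts respond to low water. No member was called by edgeR, DESeq2, limma-voom or limma on FPKM (0.0955% of all genes were called by edgeR). At an unadjusted p under 0.05 there were 3: CHS8, GLYMA_08G109400 and IFS2 (4.35% of all genes). CHS8 and GLYMA_08G109400 had lower means, with log2 changes of -0.61 and -1.0, and IFS2 a higher one.

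The combined condition was set against each single stress to ask what the second stress adds. Against water deficit, 0 of the 10 genes were called by edgeR and limma-voom (13.4% of all genes by edgeR), 2 had an unadjusted p under 0.05 (27.4% of all genes), and DESeq2 and limma on log2(FPKM + 1) each called IFS1. CHS8 was at 0.596 of its water-deficit level (log2 change -0.74, SE 0.248, edgeR adjusted p = 0.0532), and it was called without water deficit replicate 1, heat replicate 1 or heat replicate 3. IFS1 was 4.81-fold higher in combined stress than in water deficit (log2 change 2.26, SE 0.85, edgeR adjusted p = 0.0965), and it was called without combined replicate 3 (edgeR adjusted p = 0.0363). Without combined replicate 2 the log2 change was 1.0 (edgeR adjusted p = 0.532), so the size of the difference rests largely on that library.

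Against heat, 0 of the 10 were called by any of these tests (5.25% of all genes by edgeR), with 3 at an unadjusted p under 0.05 (19.2% of all genes). These were GLYMA_08G109400, at 0.577 of its heat level, GLYMA_08G109500, and IFS1, at 3.52 times its heat level in the mean. For GLYMA_08G109400 the log2 change of -0.79 on counts was -0.38 without heat replicate 3 (edgeR adjusted p = 0.658) and -0.09 on FPKM (limma on log2(FPKM + 1), adjusted p = 0.84), where the groups overlapped. For IFS1 the log2 change of 1.81 was 0.55 without combined replicate 2 (edgeR adjusted p = 0.831). CHS8 stood at 1.03 times its heat level, with an interval of the log2 change from -0.45 to 0.53.

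Whether heat acted differently on watered and water-deficit plants was asked with the interaction of both. No member was called by edgeR, DESeq2, limma-voom or limma on FPKM (0.139% of all genes by edgeR), and CHS7 and IFS2 had an unadjusted p under 0.05 (10.6% of all genes). For CHS7 the log2 change with heat was -1.0 in watered plants and -0.15 in water-deficit plants (interaction 0.85, SE 0.31, edgeR adjusted p = 0.323). For IFS2 it was 2.32 and -0.07 (interaction -2.40, SE 1.05, edgeR adjusted p = 0.422). Neither difference passed the threshold, which does not show that heat acted alike in both.

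Summed over members, chalcone synthases had their highest mean in control and isoflavone synthases their lowest. The 8 chalcone synthases together had 44.4 ± 8.64 FPKM in control, 31.0 ± 3.11 in water deficit, 23.9 ± 4.79 in heat and 26.3 ± 1.70 in combined stress (SD, n = 3 each). IFS1 and IFS2 together had 1.07 ± 0.324, 2.23 ± 1.17, 3.31 ± 2.02 and 5.32 ± 3.92 FPKM in the same order (SD, n = 3 each). The ratio of the sums was 37.7 to 48.4 in the control libraries, 8.58 to 30.7 in water deficit, 5.18 to 10.4 in heat and 2.60 to 12.8 in combined stress. No stress library reached the lowest control ratio. These sums are a description of genes chosen with earlier results known, and no test was made of them.

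**Figure D3:**
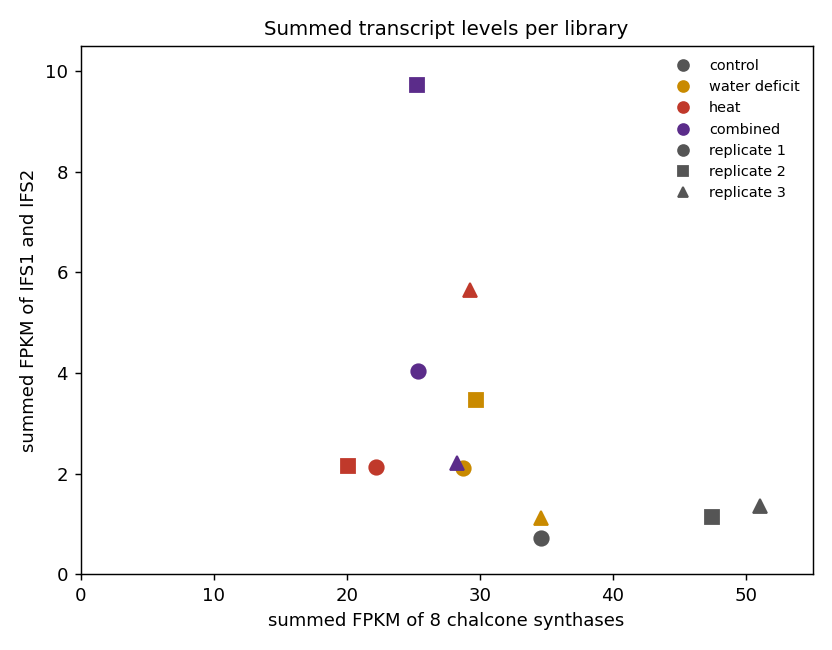
Summed FPKM of IFS1 and IFS2 (vertical axis) against summed FPKM of the 8 chalcone synthases (horizontal axis) in each library; colours are conditions and marker shapes replicate numbers. The control libraries lie at the lower right, with chalcone synthase sums of 34.6 to 51.0 and isoflavone synthase sums of 0.715 to 1.35, and combined replicate 2 stands highest at 9.73.

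The rest of the pathway was read from 2 lists of IDs, assigned to steps from general knowledge because the files give no descriptions, so no single ID is given a role. Of 16 IDs for the entry steps (phenylalanine ammonia-lyase, cinnamate 4-hydroxylase and 4-coumarate-CoA ligase, which supply the substrate of chalcone synthase), 15 were tested. In combined stress 1 was called higher (5.39% of all genes tested) and 0 lower, with a median log2 change of 0.41, and in heat and in water deficit none was called. Of 17 IDs for later steps (chalcone isomerase and reductase, the isoflavone dehydratase, and enzymes of the flavone, flavonol and anthocyanin branches), 16 were tested. In heat 2 of these were called lower (0.764% of all genes) and 0 higher, and in water deficit none was called. In combined stress 6 were called higher (5.39% of all genes) and 6 lower (8.56% of all genes), with a median log2 change of 0.24 against 0.01 over all genes. The largest rises there were those of GLYMA_20G241600 (log2 change 4.28, edgeR adjusted p = 0.0280) and GLYMA_01G214200 (1.37, edgeR adjusted p = 0.00278), and the largest falls those of GLYMA_10G292200 (-2.73, edgeR adjusted p = 0.0138) and GLYMA_12G067000 (-2.17, edgeR adjusted p = 9.4e-06). GLYMA_20G241600 and GLYMA_10G292200 were scarce, with means of 1.52 and 2.38 CPM over all libraries, and their changes had an SE of 1.25 and 0.714. GLYMA_01G214200 and GLYMA_12G067000 had means of 23.1 and 13.2 CPM.

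The genes most like CHS7 and IFS1, the leading member of each family by mean FPKM, were sought among 33932 other genes (mean of 1 CPM or more), by the Pearson correlation of log2 CPM over the 12 libraries. For CHS7 they were GLYMA_06G032400 (r = 0.905), GLYMA_20G241700 (r = 0.859), which is on the list of later steps, and GLYMA_12G184800 (r = 0.855). For IFS1 they were GLYMA_18G013300 (r = 0.936), GLYMA_01G203300 (r = 0.913) and GLYMA_13G196800 (r = 0.910). Among the members, CHS7 and CHS8 correlated at 0.808, GLYMA_08G109400 and GLYMA_08G109500 at 0.824, and IFS1 and IFS2 at 0.381. All of these points share libraries and depth, and the values are descriptions.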

How the data were processed

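RNA of pooled pods was sequenced as paired ends, per the labels' protocols. Gene-level read counts and FPKM values were deposited by the authors as separate tables, each with a column for each of the 12 libraries, matched to samples by the sample descriptions. HISAT2 2.2.1 is named in the submitters' processing notes; the counting tool, strand setting, annotation and genome build are not given in the sources used here. The deposited counts were tested as they stand with edgeR 4.0.16 (R 4.3.3; quasi-likelihood, robust, TMM factors, filter by group), as 4 group means in 1 fit over all 12 libraries, with Benjamini-Hochberg adjustment over 38737 genes in each comparison. The SE is the log2 change divided by the square root of F and is approximate. CPM uses TMM factors. For correlations, 2 was the prior count of the log2 CPM.

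The members and lists were chosen with earlier results of these data known. Named genes are all members, the called list genes with the largest changes (limited to 2 in each direction because no names are given) and the 3 genes most like the leading member of each family. The planned choice of pathway genes by description, and the search of promoters, were not run, since no description or sequence was at hand. Alternatives were DESeq2 1.42.0, limma-voom and limma 3.58.1 on log2(FPKM + 1) and log2(FPKM + 0.1), other scalings and filters, a replicate block, the compared groups alone, and each library left out. The scripts were tested on simulated data. Replicates are pools of plants in 1 chamber, so p-values measure the spread between pools.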

Additional observations from a re-analysis of the deposited data

How the results depend on the processing

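Of 60 changes (10 genes in 6 comparisons), none of the 5 called ones turned direction in any alternative. 23 others, all with an unadjusted p of at least 0.05, turned in at least 1. No cause of the differences given next was tested. In heat against control, 1 member was called in place of 2 (CHS8, not CHS7) by limma on log2(FPKM + 1) with or without a filter, by limma on log2(FPKM + 0.1), and with the compared groups alone. In combined stress against control, 5 in place of 3 were called by DESeq2 (IFS2 and GLYMA_08G109500 added) and with the compared groups alone (IFS2, CHS7 and GLYMA_08G109500 added, IFS1 lost), and 1 (CHS8) by limma on log2(FPKM + 0.1). The edgeR fit without a filter and limma-voom each called 2 (IFS1 lost). Limma on log2(FPKM + 1) also called 2 (GLYMA_08G109400 lost), and without a filter it called CHS8 and GLYMA_08G109500 only. Leaving out 1 library gave 1 to 2 calls in heat, 1 to 4 in combined stress, 0 to 1 for combined stress against water deficit, and 0 in the other comparisons.

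The replicate numbers showed no sign of pairing the libraries. The mean correlation of deviations was -0.01 over 18 same-numbered pairs (from -0.22 to 0.142). Over 36 other pairs it was 0.007 (from -0.125 to 0.152). With the replicate block, combined stress against water deficit had 2 calls in place of 0 (IFS1 and CHS8), and no other count of members changed. DESeq2 and limma on log2(FPKM + 1) gave 1 there.

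Among uncalled changes against control, GLYMA_05G153200 turned positive on FPKM (0.00998 and 0.00876 in water deficit, 0.0545 and 0.0752 in combined stress, with 1 and 0.1 added), GLYMA_08G109300 turned negative on unfiltered FPKM (-0.133 in water deficit, -0.0589 in combined stress), and GLYMA_02G130400 turned to -0.0737 in combined stress with the replicate block. With 1 library left out, GLYMA_05G153200 ranged from -0.26 to 0.0208 in water deficit and -0.29 to 0.15 in combined stress, GLYMA_08G109300 from -0.0852 to 0.35 in water deficit and -0.83 to 0.19 in heat, GLYMA_02G130400 from -0.22 to 0.89 in heat and -0.56 to 0.64 in combined stress, and IFS1 (GLYMA_07G202300) from -0.18 to 1.10 in water deficit. Depth limits the members with under 10 counts in several libraries, GLYMA_08G109500 and GLYMA_09G075200 foremost.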
